A study of Mus musculus with 6 samples.

Results

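The genes described here encode the enzymes and carriers with which the liver makes urea and breaks down amino acids. They were chosen by name, from a list of 44 gene symbols, and compared between mouse liver libraries titled wild type (WT) and libraries titled as knockout of Cry1 (CRY1 KO). Of the 44 entries 43 matched a row of the deposited table of 15092 genes, and all 43 were among the 13816 genes that passed the filter on low counts. The entry Gstz1x matched no row, and the row Gstz1 is given below with the other genes of its pathway. All 6 libraries came from the C57BL/6J strain, 3 in each group, and carry the prefix NC in their titles, which the labels do not explain. The tissue is labelled liver and the cell type hepatocyte. No sort of cells is named, and the labels describe neither the Cry1 allele nor the time of day, feeding state, sex or age. Whether the replicates came from separate animals is not stated, so each p-value measures the spread between these libraries, which may be in part technical.

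Ammonia released from amino acids is toxic, and hepatocytes near the portal vein bind it into carbamoyl phosphate and pass the nitrogen through citrulline, argininosuccinate and arginine to urea. The carbon skeletons left behind feed glucose and ketone body synthesis, so that these genes are known to respond to feeding, glucagon and glucocorticoids. The cryptochrome CRY1 holds back CLOCK and BMAL1, the circadian activators that bind DNA at the E-box.

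Library totals lay between 79708703 and 91316332 estimated counts, and the lowest count of a listed gene in any library was 773. Cry1 itself stood at 413, 579 and 694 counts in WT 1, 2 and 3 and at 561, 521 and 445 counts in the libraries labelled CRY1 KO 1, 2 and 3. Its log2 difference was -0.03 (SE 0.19, edgeR adjusted p = 0.954), so the value over the whole gene did not check the knockout labels, and the directions below compare libraries by label, CRY1 KO minus WT. Of 8 hepatocyte markers, among them Alb and Ttr, 0 passed the edgeR test. The differences were negative in 7, and in 3 all CRY1 KO libraries lay below all WT libraries (12.7% of all tested genes). Their summed level was between 94859 and 98831 CPM (counts scaled to a common library size by TMM) in WT and between 95789 and 103850 CPM in CRY1 KO. Most of this sum was Alb, which had a log2 difference of 0.17 (SE 0.13). Of 9 markers of Kupffer cells, the resident macrophages of the liver, 0 passed and in 7 all CRY1 KO libraries lay below all WT libraries (12.7% of all tested genes), with sums from 216.68 to 573.45 CPM in WT and from 198.27 to 199.05 CPM in CRY1 KO. Haemoglobin genes and Alas2 summed to 2972, 1024 and 654.2 CPM in WT 1, 2 and 3 and to between 581.01 and 734.85 CPM in CRY1 KO. Of 4 tested markers of lymphoid and plasma cells Jchain fell, and 0 of the markers of endothelial, stellate and bile duct cells passed. All markers tested were above 0 in every library. Fewer cells of a type and less RNA per cell cannot be told apart here, and the labels do not settle whether whole tissue or isolated hepatocytes were used. The part of these cell types in the results below was not tested.

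None of the 43 genes passed the edgeR quasi-likelihood test with adjustment over all tested genes at 0.05, where 1.70% of all tested genes did. Their log2 differences ran from -0.36 for Cbs to 0.72 for Tat, and 35 of the 43 group means differed by less than 1.25-fold. The median was 0.01, beside -0.02 over all tested genes, with 23 genes above 0 and 20 below. At an unadjusted p under 0.05 there were 9 genes, a share of 20.9% beside 20.7% of all tested genes. Of them 6 were higher, where 10.9% of all tested genes were, and 3 lower, where 9.84% were. In 11 genes the groups did not overlap, a share of 25.6% beside 27.3% of all tested genes. CRY1 KO was above WT in 8 of them (14.6% of all tested genes) and below in 3 (12.7%). The shares of 20.9% and 25.6% lay near the background. The smallest adjusted p in the list was 0.0622, for Slc25a13.

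The intervals were narrow for most of the list. In 31 of the 43 genes the 95% interval of the difference lay inside a 1.5-fold change in either direction, which held for 47.4% of all tested genes. In 40 genes it lay inside a 2-fold change, which held for 71.9% of all tested genes. The exceptions to the wider bound were Tat, Acmsd and Got1, which varied between WT libraries. The median coefficient of variation of the 43 genes was 10.05% in WT and 7.01% in CRY1 KO, beside 14.16% and 10.11% over all tested genes. By mean CPM the median of the list lay at percentile 97.5 of all tested genes. The comparisons of intervals and spread were not matched for level.

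**Figure D1:**
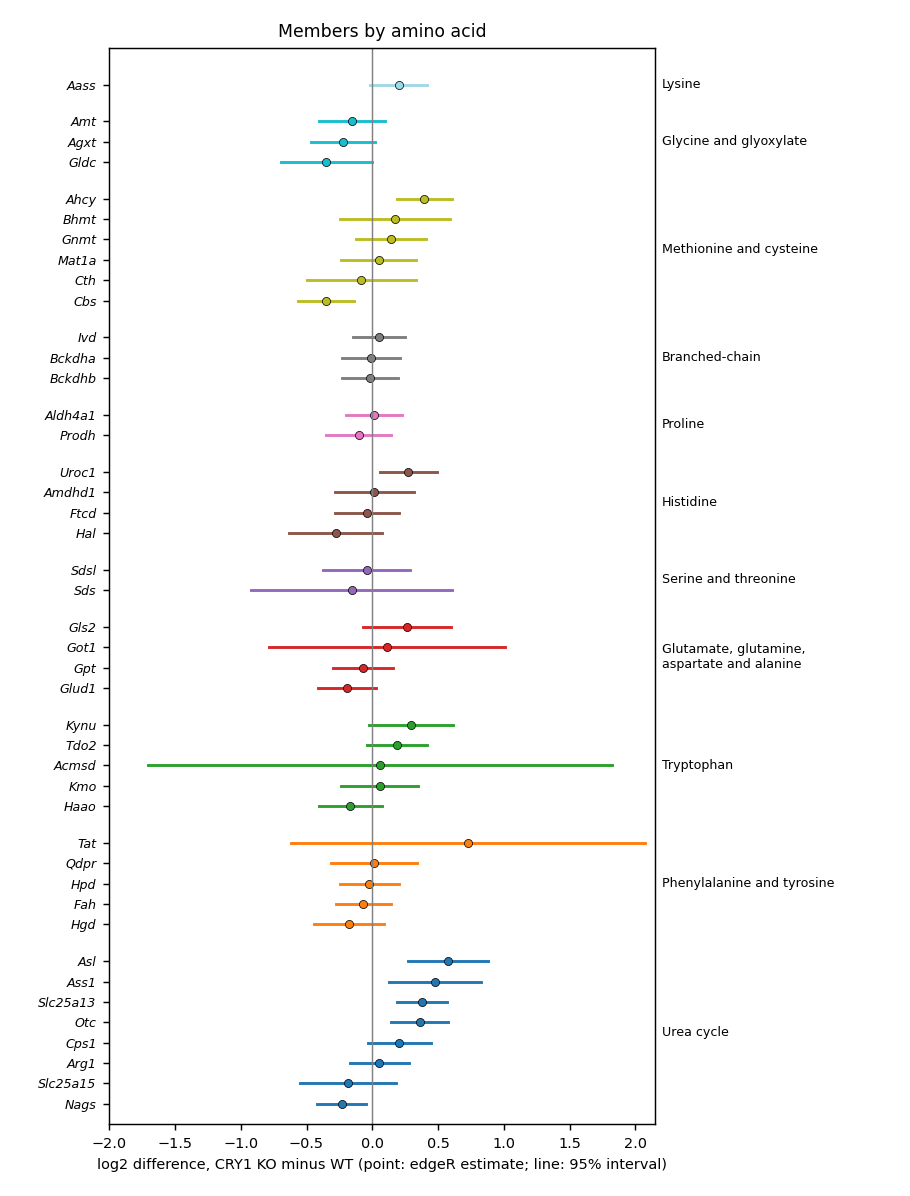
The log2 difference of each of the 43 genes (horizontal axis, CRY1 KO minus WT) is drawn as a point with its 95% interval from edgeR, with genes in rows, grouped and coloured by amino acid. Among others, Asl (0.58), Ass1 (0.48), Ahcy (0.40), Slc25a13 (0.38) and Otc (0.36) lie to the right of 0 with intervals that exclude it, Cbs (-0.36) and Nags (-0.23) to the left, and Tat and Acmsd have the widest intervals.

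Among the 8 genes of the urea cycle, 0 passed the edgeR test, while 4 were higher and 1 lower at an unadjusted p under 0.05 (20.7% of all tested genes) and in 6 the groups did not overlap (27.3% of all tested genes). The group's median log2 difference was 0.28, the highest of the groups with at least 2 genes. Its summed level was 7368 ± 772 CPM for WT, against 8964 ± 147 CPM for CRY1 KO (SD, n = 3 in each group). No test was made of this sum, most of which was Cps1 and Ass1.

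The first steps take place in mitochondria. Cps1, which makes carbamoyl phosphate from ammonia, stood at 3165, 3341 and 2908 CPM in WT 1, 2 and 3 and at 3520, 3816 and 3515 CPM in CRY1 KO 1, 2 and 3. Each library labelled CRY1 KO thus lay above each WT library, and the difference between the groups was 0.21 on the log2 scale (SE 0.10, edgeR adjusted p = 0.301). Nags makes N-acetylglutamate, the activator without which the Cps1 enzyme is inactive. It had 47.05, 52.20 and 50.35 CPM in WT and 41.86, 43.09 and 42.34 CPM in CRY1 KO, which made -0.23 on the log2 scale (SE 0.08, edgeR adjusted p = 0.156). The groups did not overlap here either, in the direction opposite to Cps1.

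Otc, which joins carbamoyl phosphate to ornithine, was measured at 323.5, 344.6 and 330.4 CPM in WT and at 435.7, 458.8 and 387.3 CPM in CRY1 KO. The difference was 0.36 (SE 0.09, edgeR adjusted p = 0.0882), with the WT libraries close together and CRY1 KO 3 nearest to them. Slc25a13 encodes citrin, the mitochondrial carrier that exports aspartate for the next step. Its levels of 171.9, 157.9 and 166.6 CPM in WT were all below the 209.1, 212.7 and 224.0 CPM in CRY1 KO (log2 0.38, SE 0.08, edgeR adjusted p = 0.0622). Slc25a15, the ornithine carrier, was at 351.3, 268.0 and 220.3 CPM in WT and at 231.8, 258.9 and 248.8 CPM in CRY1 KO. Here the groups overlapped (log2 -0.18, SE 0.16, edgeR adjusted p = 0.548), and the difference was 0.01 without WT 1, the highest library.

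The last 3 enzymes are cytosolic. Ass1, which condenses citrulline with aspartate, stood at 2403, 2415 and 1664 CPM in WT and at 2960, 2905 and 3148 CPM in CRY1 KO (log2 0.48, SE 0.15, edgeR adjusted p = 0.135). WT 3 was the lowest library, and without it the difference was 0.32 (edgeR adjusted p = 0.0960). Asl, which splits argininosuccinate into arginine and fumarate, had 324.8, 277.1 and 222.8 CPM in WT and 425.3, 407.9 and 395.3 CPM in CRY1 KO. This was the largest difference of the cycle, 1.49-fold (log2 0.58, SE 0.13, edgeR adjusted p = 0.0703). Arg1, the arginase that releases urea, lay at 991.9, 991.4 and 915.3 CPM in WT and at 1056, 1031 and 917.8 CPM in CRY1 KO. It overlapped between the groups, with a difference of 0.05 and a 95% interval from -0.17 to 0.28.

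**Figure D2:**
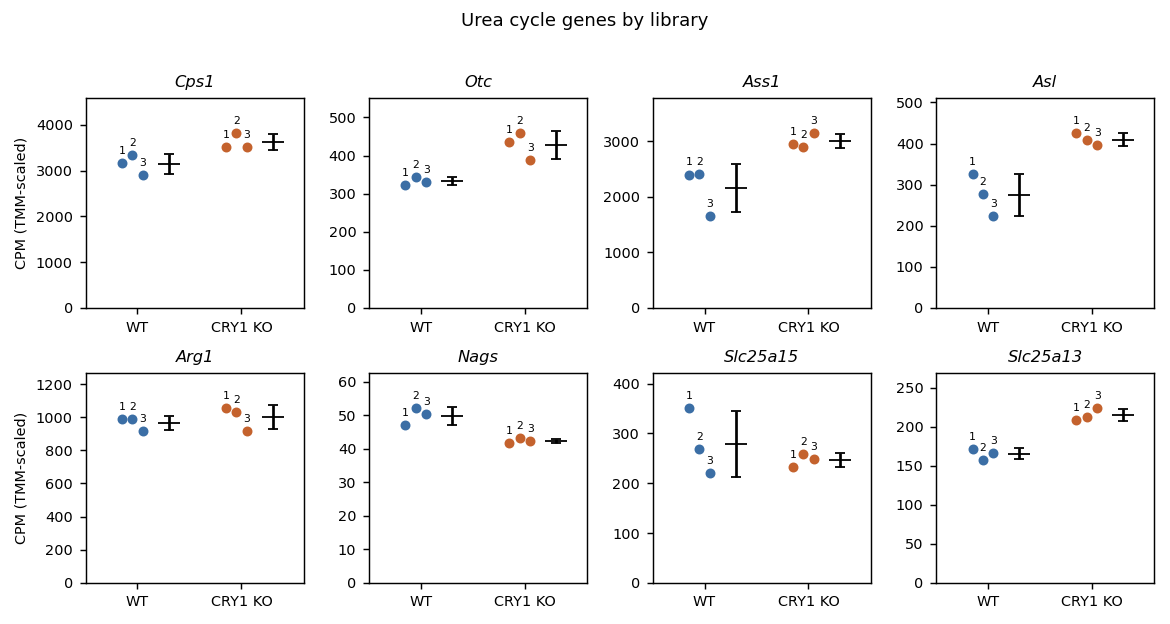
Each panel shows a urea cycle gene, with the level in CPM on a vertical axis that starts at 0, a numbered point for each library and a bar for the mean ± SD of 3 libraries per group. Points of the groups are separate for Cps1, Otc, Ass1, Asl and Slc25a13, where CRY1 KO is above, and for Nags, where it is below, and they overlap for Arg1 and Slc25a15.

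Without WT 3, Asl (log2 0.45, edgeR adjusted p = 0.0455) and Slc25a13 (0.39, edgeR adjusted p = 0.0455) were called, and so was Asl without WT 1 (0.71, edgeR adjusted p = 0.0162). Of all tested genes 6.04% were called without WT 3 and 4.04% without WT 1. DESeq2 called Otc, Ass1, Asl and Slc25a13 of the cycle and 6 of the 43 genes in all, where it called 10.8% of all genes that it gave an adjusted p.

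Promoter windows were read for the 43 genes because CLOCK and BMAL1, which CRY1 represses, bind the E-box CACGTG. In the RefSeq table of mouse promoters (GRCm38) 33 genes had an entry, with 35 windows of 250 bases before a start site, and Cps1, Asl, Arg1, Gpt, Gls2, Sds, Sdsl, Kynu, Cth and Mat1a had none. CACGTG, which reads the same on both strands, was found in 4 windows (11.4%), against 6.02% of all 32851 windows. They are printed 5′ to 3′ on the strand of the gene, with the E-box in capitals, to set the motif beside the values.
Ass1, chr2:31470020-31470269, plus strand: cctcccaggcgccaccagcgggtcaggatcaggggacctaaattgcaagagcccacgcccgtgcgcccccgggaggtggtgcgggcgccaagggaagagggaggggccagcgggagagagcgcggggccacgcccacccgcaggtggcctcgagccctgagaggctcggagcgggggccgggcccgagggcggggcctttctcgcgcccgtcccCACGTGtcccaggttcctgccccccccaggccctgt
Slc25a13, chr6:6217174-6217423, minus strand: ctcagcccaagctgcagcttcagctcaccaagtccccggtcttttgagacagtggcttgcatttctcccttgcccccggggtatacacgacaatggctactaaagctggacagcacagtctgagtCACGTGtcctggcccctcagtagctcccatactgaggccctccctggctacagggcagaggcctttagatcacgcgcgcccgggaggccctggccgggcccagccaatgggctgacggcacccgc
Slc25a15, chr8:22398278-22398527, minus strand: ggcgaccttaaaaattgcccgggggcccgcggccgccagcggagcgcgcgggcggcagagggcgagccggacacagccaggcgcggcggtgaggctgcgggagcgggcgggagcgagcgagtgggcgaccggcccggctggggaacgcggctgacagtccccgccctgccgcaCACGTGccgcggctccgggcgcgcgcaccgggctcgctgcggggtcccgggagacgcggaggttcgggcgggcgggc
Cbs, chr17:31637206-31637455, minus strand: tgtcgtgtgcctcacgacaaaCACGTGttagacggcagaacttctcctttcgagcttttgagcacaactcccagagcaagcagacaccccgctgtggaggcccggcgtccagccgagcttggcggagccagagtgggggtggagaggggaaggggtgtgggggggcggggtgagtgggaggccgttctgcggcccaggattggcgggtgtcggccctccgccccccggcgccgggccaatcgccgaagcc

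The first base of the E-box lay 36 bases before the start site in Ass1, 125 in Slc25a13, 77 in Slc25a15 and 229 in Cbs. These 4 genes did not share a direction: Ass1 and Slc25a13 had positive differences, Cbs a negative one, and Slc25a15 overlapped between the groups. The hexamer AGGTCA, a recognition motif shared by ROR and other nuclear receptors and searched on both strands, was in 13 of the 35 windows (37.1%), against 14.0% of all windows. Its genes included Ahcy, Uroc1 and Nags, which differed in direction, and Tdo2, Bhmt, Gnmt, Haao, Hgd, Got1, Acmsd, Aass, Amt and Bckdhb. The glucocorticoid receptor hexamer TGTTCT was in 3 windows (8.57%), against 16.1%, and the ATF4 letters TGATGNAAN in 1, that of Got1 (2.86%, against 3.44%). The C/EBP letters TTGCGCAA, the D-box letters TTATGTAA and TTACGTAA, the FOXO letters TGTTTAC and the cAMP response element TGACGTCA were in 0 of the 35 windows. Of all windows, 0.164%, 0.819%, 0.113%, 3.17% and 1.55% held them, in that order, so that few matches were to be found in 35 windows. A match describes letters and not a bound site.

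In the breakdown of phenylalanine and tyrosine 0 of 5 genes passed and 0 had an unadjusted p under 0.05. Tat, the tyrosine aminotransferase and a textbook target of the glucocorticoid receptor, stood at 2105, 783.4 and 557.0 CPM in WT and at 1581, 1915 and 2197 CPM in CRY1 KO. WT 1 thus fell within the CRY1 KO range, and the other WT libraries were below it. The difference of 0.72 had an SE of 0.53 and a 95% interval from -0.62 to 2.07 (edgeR adjusted p = 0.492). Without WT 1 it was 1.5 (edgeR adjusted p = 0.00622), and without WT 3 it was 0.40 (edgeR adjusted p = 0.652). The later enzymes of the path were Hpd (-0.02), Hgd (-0.18) and Fah (-0.07), and Qdpr, which regenerates tetrahydrobiopterin, was at 0.01. Each of these 4 overlapped between the groups, with 95% intervals that together ran from -0.44 to 0.34.

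Of the 5 tryptophan genes 0 passed. Tdo2, the dioxygenase that opens the indole ring, was above every WT library in every library labelled CRY1 KO, with a difference of 0.19 (SE 0.10, edgeR adjusted p = 0.319). The largest difference was that of Kynu, kynureninase, with 188.8, 150.4 and 128.8 CPM in WT and 202.4, 194.2 and 176.2 CPM in CRY1 KO (log2 0.29, SE 0.14, edgeR adjusted p = 0.280). WT 1 overlapped with CRY1 KO in this gene. Kmo (0.06) and Haao (-0.17), the enzymes on either side of Kynu, overlapped too. Acmsd diverts the pathway away from NAD synthesis, and its levels were 47.16, 14.17 and 8.49 CPM in WT and 22.62, 28.64 and 21.47 CPM in CRY1 KO. This 5.56-fold range was the widest of the 43 genes within WT, and the difference was 0.06 with all libraries and 1.10 without WT 1 (edgeR adjusted p = 0.0496). It turned negative without WT 2 (-0.20), WT 3 (-0.34) or CRY1 KO 2 (-0.08).

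Genes of glutamate, glutamine, aspartate and alanine had 0 of 4 past the test. Gls2, the liver glutaminase that releases ammonia beside the urea cycle, had the largest difference of this group, at 271.6, 358.7 and 242.4 CPM in WT and 373.4, 351.7 and 321.9 CPM in CRY1 KO (log2 0.26, SE 0.15, edgeR adjusted p = 0.342). WT 2 lay inside the range of CRY1 KO. Glud1, glutamate dehydrogenase, was at -0.19 (SE 0.10), and the alanine aminotransferase gene Gpt at -0.07 (SE 0.10). Got1, the cytosolic aspartate aminotransferase, ranged from 162.8 to 377.4 CPM in WT and from 194.0 to 335.8 CPM in CRY1 KO, with a difference of 0.11 (SE 0.36). Leaving out WT 1 moved it to 0.53, WT 2 to 0.004, WT 3 to -0.12 and CRY1 KO 1, 2 and 3 to 0.30, -0.07 and 0.08. The serine dehydratase gene Sds, which turns serine into pyruvate, stood at 174.2, 136.2 and 85.51 CPM in WT and at 86.84, 116.3 and 152.0 CPM in CRY1 KO. Its groups covered nearly the same range (log2 -0.16, SE 0.31), and its relative Sdsl was at -0.04 (SE 0.14).

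Histidine genes did not share a direction. Uroc1, urocanase, was at 272.1, 306.8 and 327.8 CPM in WT and at 369.4, 361.3 and 365.3 CPM in CRY1 KO, with no overlap (log2 0.27, SE 0.10, edgeR adjusted p = 0.158). Hal, the ammonia lyase one step before it, had 315.3, 486.3 and 379.6 CPM in WT and 344.4, 334.3 and 295.8 CPM in CRY1 KO (log2 -0.28, SE 0.15, edgeR adjusted p = 0.342). WT 1 lay inside the range of CRY1 KO in Hal and was the lowest library in Uroc1. The next enzymes, Amdhd1 (0.02) and Ftcd (-0.04), had intervals inside a 1.5-fold change.

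The proline and branched-chain genes had small differences. Prodh, proline dehydrogenase, was at 143.9, 143.9 and 120.2 CPM in WT and at 138.3, 125.9 and 115.6 CPM in CRY1 KO (log2 -0.10, SE 0.11), and Aldh4a1 was at 0.01 (SE 0.09). Bckdha and Bckdhb encode subunits of the dehydrogenase that commits branched-chain keto acids to breakdown, and their differences were -0.01 (SE 0.10) and -0.02 (SE 0.09). Ivd, which acts next on leucine, was at 176.1, 180.4 and 185.8 CPM in WT and at 184.0, 199.9 and 178.1 CPM in CRY1 KO (log2 0.05, SE 0.09). For each of these 5 genes the 95% interval lay between -0.35 and 0.25.

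In methionine and cysteine metabolism 0 of 6 genes passed, and those with an unadjusted p under 0.05 were Ahcy and Cbs, which differed in opposite directions. Ahcy hydrolyses S-adenosylhomocysteine to homocysteine, and it stood at 1300, 1187 and 1239 CPM in WT and at 1597, 1690 and 1616 CPM in CRY1 KO. No library overlapped (1.32-fold, log2 0.40, SE 0.09, edgeR adjusted p = 0.0702). Cbs removes homocysteine by joining it to serine. It was at 528.5, 553.9 and 491.8 CPM in WT and at 430.2, 417.5 and 383.0 CPM in CRY1 KO, again without overlap (log2 -0.36, SE 0.09, edgeR adjusted p = 0.0881). Without WT 3 the Cbs difference was -0.40 and was called (edgeR adjusted p = 0.0476), where 6.04% of all tested genes were. DESeq2 called both Ahcy and Cbs.

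The other genes of this path overlapped between the groups. Mat1a, which makes S-adenosylmethionine, was at 0.05 (SE 0.12), and Gnmt, the glycine methyltransferase that consumes it, at 0.14 (SE 0.12). Bhmt, which returns homocysteine to methionine with betaine, was at 0.17 (SE 0.18), with levels from 1907 to 2804 CPM in WT and from 2177 to 3189 CPM in CRY1 KO. Cth, which follows Cbs, was at -0.08 (SE 0.18).

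The 3 genes of glycine and glyoxylate had negative differences, and 0 passed. Gldc, the decarboxylase of the mitochondrial glycine cleavage system, was at 168.8, 177.8 and 175.6 CPM in WT and at 167.0, 137.3 and 105.7 CPM in CRY1 KO (log2 -0.35, SE 0.15, edgeR adjusted p = 0.241). CRY1 KO 1 lay just below the lowest WT library, and CRY1 KO 3 was the lowest. Amt, the aminomethyltransferase of the same system, was at -0.16 (SE 0.11), and Agxt, which detoxifies glyoxylate in peroxisomes, at -0.22 (SE 0.11). The lysine gene Aass stood at 262.1, 224.3 and 232.2 CPM in WT and at 261.9, 290.8 and 272.2 CPM in CRY1 KO (log2 0.20, SE 0.10, edgeR adjusted p = 0.279). WT 1 overlapped with CRY1 KO by a small margin.

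**Figure D3:**
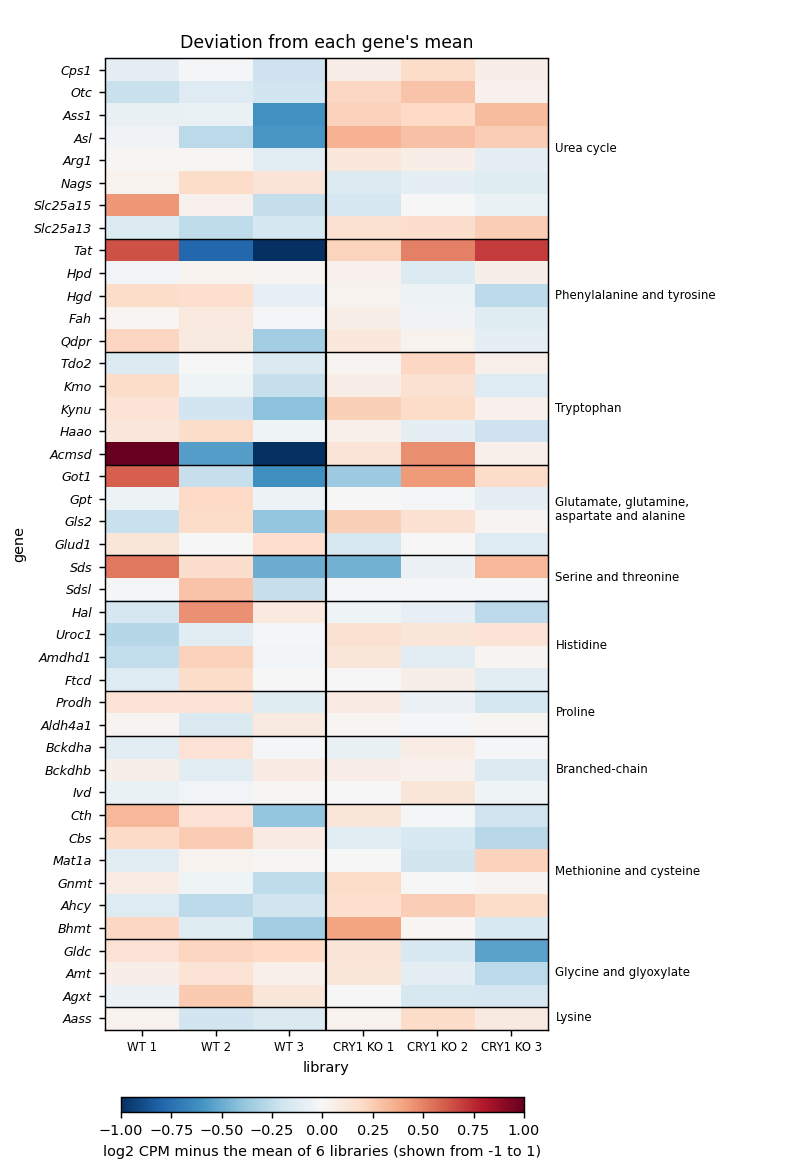
Each row is a gene and each column a library, and the colour gives log2 CPM minus the gene's mean over the 6 libraries, shown from -1 to 1. Deviations are small in most rows, and Acmsd, Tat and Got1 have the strongest colours, with WT 1 high and WT 3 low.

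WT 3 was the lowest WT library in 24 of the 43 genes, WT 1 in 13 and WT 2 in 6. The highest was WT 2 in 20 genes, WT 1 in 18 and WT 3 in 5. Among the CRY1 KO libraries the lowest was CRY1 KO 3 in 25 genes, CRY1 KO 1 in 11 and CRY1 KO 2 in 7. The highest of them was CRY1 KO 1 in 22 genes, CRY1 KO 2 in 15 and CRY1 KO 3 in 6. Within WT the widest ranges were those of Acmsd (5.56-fold), Tat (3.78-fold), Got1 (2.32-fold) and Sds (2.04-fold), and in CRY1 KO these genes ranged over 1.33-fold, 1.39-fold, 1.73-fold and 1.75-fold. The highest WT library was WT 1 in each of them. For 10 glucocorticoid targets outside the list the median of the log2 deviations was 0.27, -1.05 and -1.10 for WT 1, 2 and 3, and 0.02, 0.44 and 0.63 for CRY1 KO 1, 2 and 3. WT 1 was the highest WT library in 9 of these 10, the exception being Klf9, and in 4 (Sgk1, Mt1, Mt2 and Igfbp1) it was also above every library labelled CRY1 KO. Sds, Got1 and Acmsd departed from that median in several libraries. In WT 2 the deviation was 0.17 for Sds and -0.23 for Got1. In CRY1 KO 1, 2 and 3 Sds was at -0.48, -0.06 and 0.33, Got1 at -0.36, 0.43 and 0.18, and Acmsd at 0.13, 0.47 and 0.05. Of the 10 glucocorticoid targets 8 had positive differences and 2 negative ones, Mt1 (-1.06, SE 0.94) and Mt2 (-2.35, SE 1.14). Among the positive ones were Igfbp1 (0.04), Sgk1 (0.03) and Klf9 (0.15). Tsc22d3, picked as an example, stood at 156.9, 26.42 and 27.78 CPM in WT and at 154.6, 173.6 and 193.4 CPM in CRY1 KO (log2 1.30, SE 0.81).

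For 9 genes of the response to fasting and glucagon WT 1, 2 and 3 had median deviations of 0.30, -1.02 and -0.52, against 0.42, 0.59 and 0.55 for CRY1 KO 1, 2 and 3. Pck1, which opens gluconeogenesis, was at 2633, 1024 and 1006 CPM in WT and at 2789, 3125 and 3418 CPM in CRY1 KO. Cpt1a rose among these 9 genes, and 0 of the 10 glucocorticoid targets passed. The labels give no feeding state or time of day for any library, and the part of these responses in the spread of Tat, Acmsd, Got1 and Sds was not tested. Acmsd and Got1 were given library by library because their spread was seen.

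**Figure D4:**
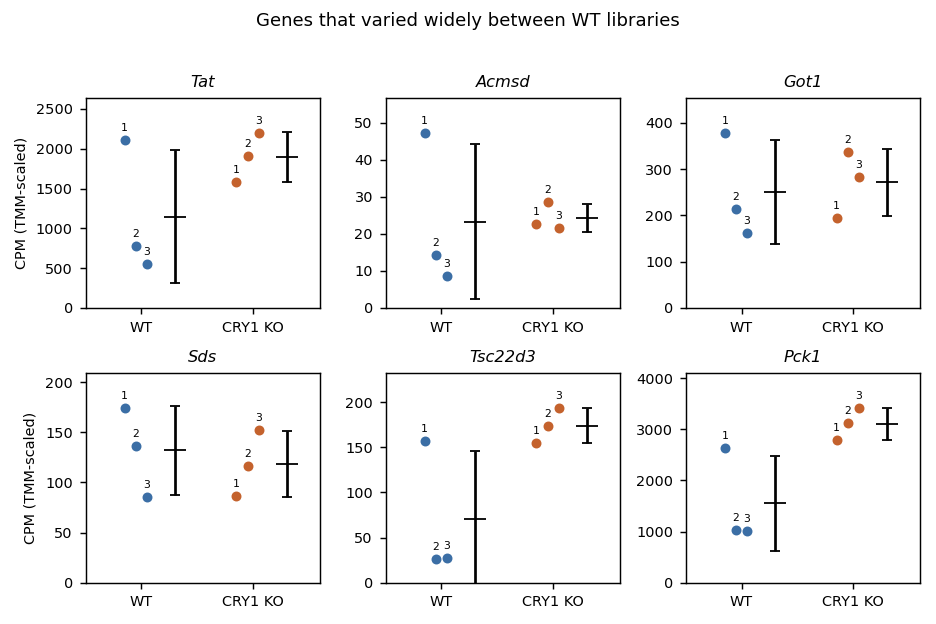
Panels show the level in CPM, from 0, for Tat, Acmsd, Got1 and Sds and, for comparison, for Tsc22d3 and Pck1, with a numbered point for each library and the mean ± SD of 3 libraries per group. In all 6 panels WT 1 stands above WT 2 and WT 3. For Tat, Got1, Sds, Acmsd and Tsc22d3 at least 1 WT library lies inside or above the range of CRY1 KO. For Pck1 every WT library lies below that range.

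Urea synthesis and glutaminase belong to the periportal zone of the lobule, and glutamine synthetase to the hepatocytes around the central vein. Of 6 other periportal genes 0 passed, 5 had positive differences and their median was 0.17, with Pck1, counted also among the fasting genes, at 1.001, Cyp2f2 at 0.41 (SE 0.18), Hsd17b13 at 0.31 (SE 0.11), Pigr at 0.03, Ctsc at 0.02 and Aldh1b1 at -0.41 (SE 0.27). Of 8 pericentral genes 0 passed, 7 had negative differences and their median was -0.26. Among the latter Glul, glutamine synthetase, was at 963.0, 972.4 and 901.2 CPM in WT and at 815.0, 729.7 and 736.0 CPM in CRY1 KO (log2 -0.31, SE 0.09, edgeR adjusted p = 0.116), and Lgr5 was at -0.78 (SE 0.19), while Axin2 was at 0.24 (SE 0.27). No difference between these zonation lists was tested.

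A further 115 genes of the same pathways, of amino acid transport and of their regulation were listed, of which 111 were tested. Of these, 2 rose, 3 fell and 106 did not pass, where 1.06% of all tested genes rose and 0.644% fell. Their median log2 difference was 0.00, and 26.1% had an unadjusted p under 0.05. The 5 that passed were regulators or carriers, and 0 of those listed by amino acid did.

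Among 15 regulators, Hnf4a, a nuclear receptor that maintains hepatocyte gene expression, stood at 479.1, 399.8 and 353.1 CPM in WT and rose to 612.9, 717.1 and 710.5 CPM in CRY1 KO (log2 0.73, SE 0.13, edgeR adjusted p = 0.0389). Foxo1, a transcription factor restrained by insulin, stood at 37.15, 22.63 and 29.25 CPM in WT and rose to 55.79, 59.00 and 60.78 CPM in CRY1 KO (log2 0.98, SE 0.16, edgeR adjusted p = 0.0349). Atf4, the effector of the response to amino acid shortage, fell from 105.5, 117.0 and 96.89 CPM in WT to 72.31, 73.32 and 74.28 CPM in CRY1 KO (log2 -0.54, SE 0.09, edgeR adjusted p = 0.0349). The groups did not overlap in any of these genes. Klf15, an activator of amino acid catabolism, was at 184.1, 96.77 and 96.65 CPM in WT and at 176.7, 201.3 and 209.4 CPM in CRY1 KO. It did not pass (log2 0.64, SE 0.26, edgeR adjusted p = 0.237), with WT 1 inside the range of CRY1 KO, and without WT 1 its difference was 1.02 (edgeR adjusted p = 0.00282). Leaving out any other library gave no call for Klf15, and 4.04% of all tested genes were called without WT 1. The glucagon receptor gene Gcgr was at -0.27 (SE 0.08, edgeR adjusted p = 0.119), and the glucocorticoid receptor gene Nr3c1 at -0.16.

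Of 14 amino acid carriers 2 fell. Slc1a4, a carrier of alanine, serine and cysteine, fell from 7.95, 5.97 and 4.35 CPM in WT to 2.02, 2.29 and 1.30 CPM in CRY1 KO (log2 -1.70, SE 0.29, edgeR adjusted p = 0.0346). Slc36a1, a lysosomal amino acid transporter, fell from 30.61, 36.44 and 37.79 CPM to 23.56, 21.31 and 20.77 CPM (log2 -0.68, SE 0.11, edgeR adjusted p = 0.0311). Slc7a2, a carrier of arginine and other cationic amino acids, and Slc38a4 had differences of 0.56 (edgeR adjusted p = 0.0736) and 0.42 (edgeR adjusted p = 0.104). The calls of Hnf4a, Foxo1, Atf4, Slc1a4 and Slc36a1 were lost without WT 2 (edgeR adjusted p = 0.168, 0.0863, 0.139, 0.132 and 0.132), and without each library labelled CRY1 KO, where the adjusted p lay between 0.0821 and 0.164. Without scaling of the libraries Atf4 (0.0596) and Slc36a1 (0.0624) missed the threshold.

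**Figure D5:**
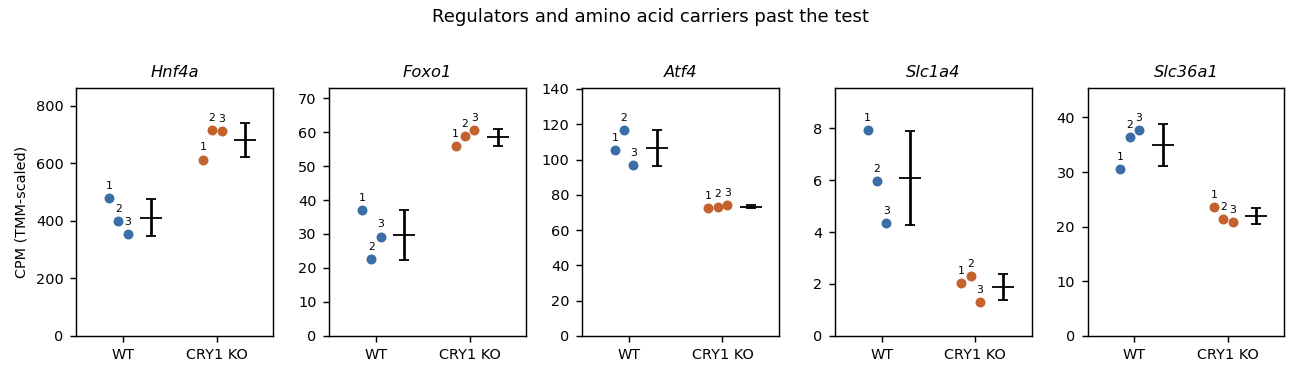
Levels in CPM, from 0, of the 5 regulators and carriers that passed the test are drawn with a numbered point for each library and the mean ± SD of 3 libraries per group. Hnf4a and Foxo1 are higher in all 3 libraries labelled CRY1 KO, and Atf4, Slc1a4 and Slc36a1 are lower in all 3.

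Several further genes did not pass over all genes. They, and the genes of zonation, Tsc22d3, Pck1, Klf15, Gcgr, Nr3c1, Slc7a2 and Slc38a4 above, fall outside the naming rule and were chosen after their values were seen. Slc25a44, the mitochondrial carrier of branched-chain amino acids, had 53.13, 38.92 and 35.02 CPM in WT and 61.49, 68.81 and 69.74 CPM in CRY1 KO (log2 0.65, SE 0.15, edgeR adjusted p = 0.0701). Bckdk, the kinase that switches off the branched-chain dehydrogenase, stood at 10.4, 15.3 and 12 CPM in WT and at 8.5, 7.41 and 8.05 CPM in CRY1 KO (log2 -0.65, SE 0.16, edgeR adjusted p = 0.0721). Both were called without WT 1, at 0.85 (edgeR adjusted p = 0.00500) and -0.77 (edgeR adjusted p = 0.0263), where 4.04% of all tested genes were called. Leaving out any other library called neither. Of 21 further branched-chain genes 0 passed, and 14 had positive differences (66.7%, against 47.3% of all tested genes). In 7 CRY1 KO lay above WT without overlap, which held for 14.6% of all tested genes, and in 1, Bckdk, below (12.7%). Beside Slc25a44 the 7 were Aldh6a1 (0.35), Acadsb (0.31), Mmut (0.29), Pcca (0.25), Dld (0.16) and Acad8 (0.13).

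Gstz1, the isomerase between Hgd and Fah, was at -0.16. Gpt2, the mitochondrial alanine aminotransferase, was at 0.64 (SE 0.18, edgeR adjusted p = 0.113), and 0.87 without WT 1 (edgeR adjusted p = 0.00720). Leaving out any other library gave no call for Gpt2. Asns and Shmt2 did not pass, with Asns at -0.71 (SE 0.72) and Shmt2 at -0.04 (SE 0.08).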

How the data were processed

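Polyadenylated RNA of 6 mouse liver samples was sequenced from a stranded Illumina library, per the labels' protocols. The values deposited by the authors are whole numbers per gene, read here as estimated counts because of their pattern, in which 3 was more frequent than 1, 2 or 4 in every library, and because StringTie is named. Named in the submitters' processing notes, in no stated role, are limma 3.42.2, StringTie 2.1.7, HISAT2 2.2.1, Trim Galore 0.6.7 and the build GRCm39 (mm39). Annotation and strandedness of counting: not given in the sources used here. Groups came from sample titles.

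Genes were kept with filterByExpr of edgeR 4.0.16 (minimum count 10, minimum total 15), scaled by TMM and compared with the quasi-likelihood test, robust, and p-values were adjusted by Benjamini-Hochberg over the 13816 tested genes, with a threshold of 0.05. SE is the log2 difference divided by the root of F. The median deviation of a list used log2 CPM with a prior count of 2. Promoters were RefSeq windows on GRCm38, used for sequence only. Tested on simulated counts of this comparison with 13616 genes, the test recovered 29.9% of 67 genes changed 1.5-fold, 85.1% of 67 changed 2-fold and 95.5% of 66 changed 4-fold. Same-numbered samples were not paired, since the labels do not say that the numbers pair them. Their deviations correlated at -0.07, -0.01 and 0.07, and those of differently numbered samples at between -0.09 and 0.10. The genes and lists were chosen with earlier results of these data known. The naming rule takes called genes, genes with an unadjusted p under 0.05, the urea cycle, the largest difference in each other group and the called pathway genes. Some results on further pathway genes are not reported here.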

Additional observations from a re-analysis of the deposited data

How the results depend on the processing

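The count of 0 called among the 43 genes held with RLE scaling, without scaling, without a filter, with limma-trend (limma 3.58.1) and with the replicate number as a block, and 9, 8, 9, 9 and 10 of them had an unadjusted p under 0.05. DESeq2 1.42.0 called 6 of the 43, 20 of the 111 further genes and 1284 of all genes. Without scaling 3 further genes and 113 of all genes were called. With the replicate block, for which the numbers give no evidence of pairing, 1 further gene, Slc1a4, and 94 of all genes were called. Leaving out each library in turn gave between 0 and 3 of the 43 called, and between 0 and 14 further genes. The count was 3 without WT 1 and 3 without WT 3, where 4.04% and 6.04% of all tested genes were called. Of all genes between 17 (without WT 2) and 844 (without WT 3) were called. Between 13 and 18 of the 43 had groups that did not overlap, which is reached more easily with fewer libraries. The cause of the other changes was not tested.

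Of the 43 genes 27 kept their sign in all 12 alternatives. The other 16 had log2 differences no larger than 0.18 in size. Without scaling Amdhd1 (-0.0061) and Aldh4a1 (-0.010) turned negative. Over the libraries left out, the range was -0.33 to 0.014 for Slc25a15, -0.052 to 0.037 for Hpd, -0.13 to 0.13 for Qdpr, -0.039 to 0.17 for Kmo, -0.34 to 1.10 for Acmsd, -0.12 to 0.53 for Got1, -0.11 to 0.017 for Gpt, -0.39 to 0.094 for Sds, -0.16 to 0.10 for Sdsl, -0.092 to 0.15 for Amdhd1, -0.11 to 0.047 for Ftcd, -0.054 to 0.064 for Aldh4a1, -0.067 to 0.063 for Bckdha, -0.074 to 0.049 for Bckdhb, -0.26 to 0.074 for Cth and -0.061 to 0.14 for Mat1a. In the simulation 29.9% of 67 genes changed 1.5-fold were recovered. Smaller changes were not simulated, and the changed genes were not matched to the 43 in level or spread.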
